A study of Bos taurus with 16 samples.

Results

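The SLC25 carriers are a family of small membrane proteins, most of which sit in the inner mitochondrial membrane. In the deposited mRNA table of 27233 genes, 45 genes had a symbol that starts with SLC25A, each on a single row, and the 39 with a mean RPKM of at least 1 over all libraries are described here. RPKM is the read number of a gene scaled by its length and by the total reads of the library, so levels can be compared between genes. Library totals, recovered from the RPKM values, were 28.7 to 44.6 M reads counted to genes, with a median of 33.9 M. The libraries came from corpora lutea, the progesterone-secreting glands that form in the ovary after ovulation, of 16 pregnant cattle, with 4 animals each on day 14, day 17, day 20 and day 23. Each animal had mated and was also inseminated, and animals not found pregnant had been left out by the submitters. All groups are pregnant, so a difference between days cannot be told apart from the age of the gland itself. Breed and age of the animals are not stated.

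Mitochondria import ADP and phosphate and release ATP, and they exchange citrate, malate, amino acids, carnitine esters, iron and cofactors with the cytosol. The inner membrane is tight to these molecules, and SLC25 carriers let each of them pass, usually by swapping one solute for another. In steroid-secreting cells mitochondria also hold the enzyme that makes pregnenolone from cholesterol, and citrate that leaves the mitochondria through a carrier of this family is a source of carbon for cholesterol and fatty acids. The steroidogenic markers were high in the libraries, with mean RPKM of 5143 for HSD3B1, 4198 for CYP11A1 and 2836 for STAR. A corpus luteum also holds endothelial cells, pericytes, fibroblasts and leukocytes. In bulk tissue, fewer cells of a type and less RNA per cell cannot be told apart.

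Levels differed widely between members. SLC25A1, the citrate carrier, was the highest at a mean RPKM of 550.3. It was followed by SLC25A3, the phosphate carrier, at 307, SLC25A6, an ADP/ATP carrier, at 153 and SLC25A39, which is needed for glutathione import, at 109. These 4 genes held 64.7% of the summed RPKM of the family. A further 20 members had a mean RPKM of at least 10 and under 100, and 15 of at least 1 and under 10. The lowest of the 39 were SLC25A21, an oxodicarboxylate carrier, at 1.66 and SLC25A45 at 1.45.

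**Figure D1:**
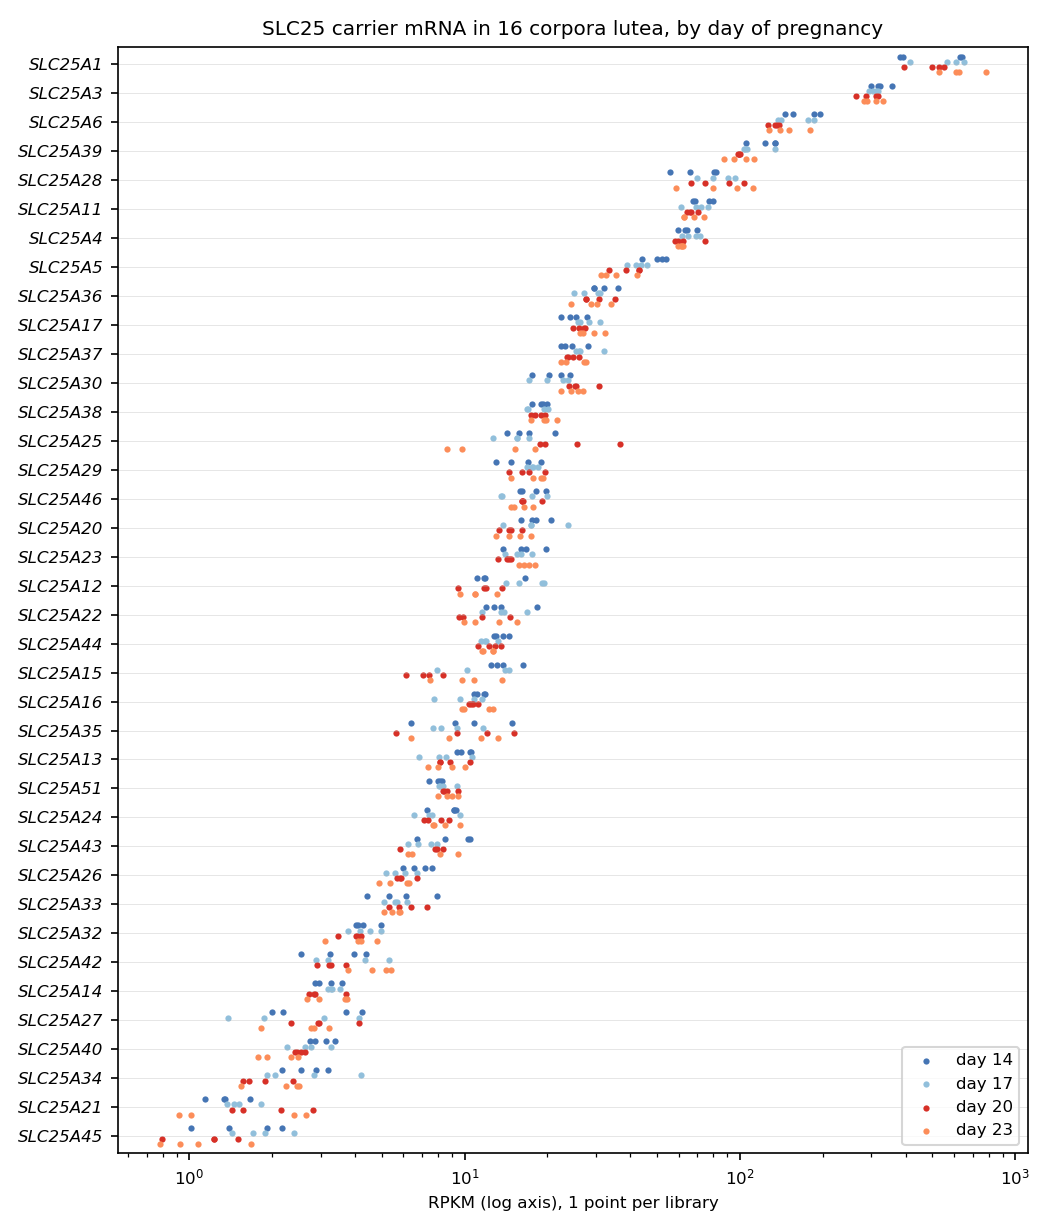
RPKM of 38 of the 39 SLC25 members with a mean RPKM of at least 1, on a log axis, with 1 point per library coloured by day and members ordered by mean. The points of the 4 days lie on top of each other for most members, while SLC25A15 on day 20 and SLC25A25 on days 20 and 23 stand out from the row.

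The 6 members below an RPKM of 1 stay out of all counts. SLC25A53 had a mean RPKM of 0.539, SLC25A41, an ATP-Mg/phosphate carrier, 0.261 and SLC25A47 0.155. SLC25A31, the ADP/ATP carrier of male germ cells, had at most 5 reads in a library. SLC25A2, a close relative of the ornithine carrier SLC25A15, and SLC25A48 had at most 0.0344 and 0.0153 RPKM in any library, recovered as at most 1 read. Of the ADP/ATP carriers, SLC25A4, SLC25A5 and SLC25A6 had a mean RPKM of at least 1. Of the pair SLC25A2 and SLC25A15 only SLC25A15 did, and SLC25A29, a carrier of basic amino acids, was at 17.0.

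Most carriers varied little between days, and at the median so did all genes tested. The highest of the 4 day means was less than 1.2 times the lowest in 21 of 39 members, and the median of that ratio was 1.19 both in the members and in all 13361 genes tested. The coefficient of variation within a day had a median of 12.3% in the members and of 14.4% in all genes tested. SLC25A51, an NAD carrier, was the steadiest member within a day at 6.38%, and SLC25A21 varied most at 34.7%. At least 1.4-fold between the highest and the lowest day mean was seen in 9 members, led by SLC25A25 with 1.95 and SLC25A15 with 1.93. The shares of all genes tested under 1.2-fold or at 1.4-fold and more were not counted. Neither count is therefore shown to be particular to the carriers. The summed RPKM of the family was 1747 ± 161 for day 14, 1758 ± 136 for day 17, 1628 ± 60.99 for day 20 and 1787 ± 126 for day 23 (SD, n = 4), and SLC25A1 alone made up 31.8% of it.

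By limma on log2(RPKM + 1), adjusted by Benjamini-Hochberg over 13361 genes, 0 of 39 members passed an adjusted p of 0.05 in any of the 6 comparisons between days or in the F test over all 4 days, and 0 of 13361 genes (0%) passed in each of them. The values below are therefore described, with their unadjusted p from the same fit. At an unadjusted p under 0.05 the F test held 7 of 39 members, where 11.7% of all genes tested did. On day 17 against day 14 it was 2 of 39 members (7.57% of all genes), on day 20 against day 14 it was 8 (8.11%), and on day 23 against day 14 it was 7 (12.6%). Between later days it was 5 of 39 for day 20 against day 17 (8.17%), 5 for day 23 against day 17 (11.7%) and 4 for day 23 against day 20 (7.0%). Run on reads worked back from the RPKM values, limma's voom gave 0 members past the threshold in each comparison and 2, 9 and 7 members at an unadjusted p under 0.05 on days 17, 20 and 23 against day 14, where it gave 1015, 1080 and 1647 of the 13361 genes.

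Of the 8 members at an unadjusted p under 0.05 in limma on day 20 against day 14, SLC25A15, SLC25A5, SLC25A39, SLC25A6, SLC25A23 and SLC25A20 were lower on day 20 (6 of 39, against 3.83% of all genes) and SLC25A30 and SLC25A25 were higher (2 of 39, against 4.28%). In 5 members all 4 libraries of day 20 lay below the 4 of day 14, where 2.88% of all genes did, and in 1, SLC25A51, they lay above (2.33% of all genes). The fold change was negative in 27 of 39 members, with a median of -0.08 on the log2 scale against -0.02 over all genes tested. Leaving out day 14 replicate 3 brought the count of 8 to 4, and leaving out day 20 replicate 3 brought it to 5. On day 20 the summed RPKM of 7 macrophage markers was 242 to 344, against 127 to 189.6 on day 14, and that of 8 T and NK cell markers was 16.9 to 46.7, against 12.1 to 24.3. The 6 pericyte and smooth muscle markers summed to 415 to 759.5 on day 20, against 314 to 567 on day 14, and the 6 fibroblast markers to 3717 to 6707, against 3399 to 5852. On this comparison limma held 7 of 8 T and NK cell and 4 of 7 macrophage markers higher at an unadjusted p under 0.05. It also held 2 of 6 pericyte and smooth muscle markers and 1 of 6 fibroblast markers higher, where 4.28% of all genes were. The medians of these lists were 0.88, 0.74, 0.72 and 0.31 on the log2 scale, against -0.02 over all genes tested. Of 8 endothelial markers, 5 were negative and 0 higher or lower at that p, with a median of -0.08. The 7 luteal markers found summed to 17520 to 21170 on day 20, against 19740 to 21900 on day 14. Of these 7, 5 were negative and 1 was lower at that p (3.83% of all genes), with a median of -0.09. Of 2 red cell markers tested, 1 was lower at that p. The part of these cell types in the carriers' values was not tested.

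**Figure D2:**
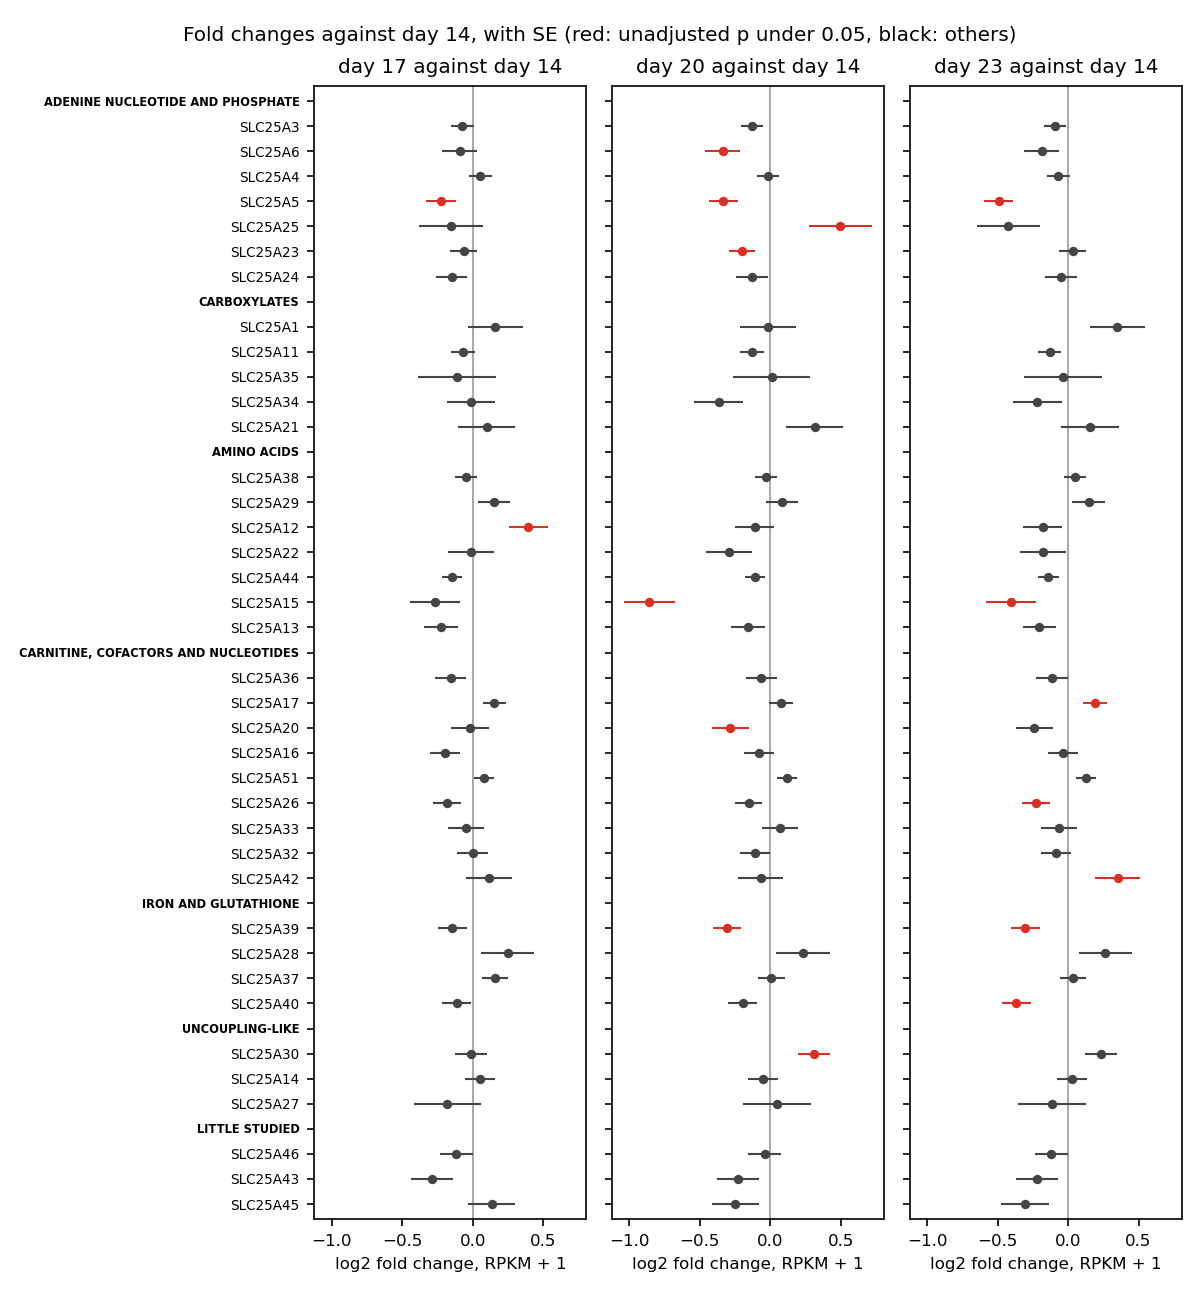
Log2 fold change of RPKM + 1 of 38 of the 39 members on days 17, 20 and 23 against day 14, grouped by what the carriers move, with standard errors as bars. Members at an unadjusted p under 0.05 are red (2, 8 and 7 members), none passed after adjustment, and SLC25A15 on day 20 lies farthest from 0 at -0.86.

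SLC25A15 exchanges ornithine for citrulline across the inner membrane, and in humans its loss causes a disorder with raised ornithine and ammonia in blood. Its RPKM was 16.3, 13.8, 13.1 and 12.5 on day 14, 14.5, 14.0, 7.93 and 10.2 on day 17, 7.41, 7.05, 8.32 and 6.14 on day 20 and 10.8, 13.7, 9.78 and 7.47 on day 23. All libraries of day 20 lay below all of day 14, whereas days 17 and 23 overlapped with day 20. The lowest library of day 17 was replicate 3 and the lowest of day 23 replicate 4. Behind the values stood 267 to 935 reads per library. The mean was 7.23 ± 0.905 on day 20 against 13.9 ± 1.67 on day 14 (SD, n = 4), a log2 fold change of -0.86 ± 0.18 (SE, limma unadjusted p = 0.000236, adjusted p = 0.14). By that p the gene stood at rank 19 of 13361 in this comparison. Permuting the 8 libraries in an exact two-sided test gave p = 0.0286, the smallest that the 70 regroupings allow. SLC25A15 was singled out with its low level on day 20 already known, so these p-values describe the gene and do not test it afresh.

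SLC25A15 passed on day 20 against day 14 with some sets of libraries. As the gene was singled out with its low level on day 20 known, such a pass is no fresh test. With only the 8 libraries of days 14 and 20 its limma adjusted p was 0.032, and without day 17 replicate 3 it was 0.041, while leaving out any other single library gave 0.121 to 0.392. The fold change itself stayed between -0.92 and -0.79 with any 1 library left out. Against day 17 the log2 fold change of day 20 was -0.59 ± 0.18 (unadjusted p = 0.00478, adjusted p = 0.44 in limma, exact permutation p = 0.0571). Day 23 against day 20 gave 0.45 ± 0.18 (unadjusted p = 0.0231, adjusted p = 0.64 in limma, exact permutation p = 0.0571), and day 23 against day 14 gave -0.40 ± 0.18 (adjusted p = 0.36 in limma, exact permutation p = 0.0857). On day 17 against day 14 the exact permutation p was 0.286. In the authors' deposited table, whose header does not name the comparison, SLC25A15 has an adjusted p of 0.0201, SLC25A12 one of 0.0174 and SLC25A25 one of 0.038. These are the 3 of 39 members under 0.05 in the authors' deposited table, where 527 of 15806 genes (3.33%) are.

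**Figure D3:**
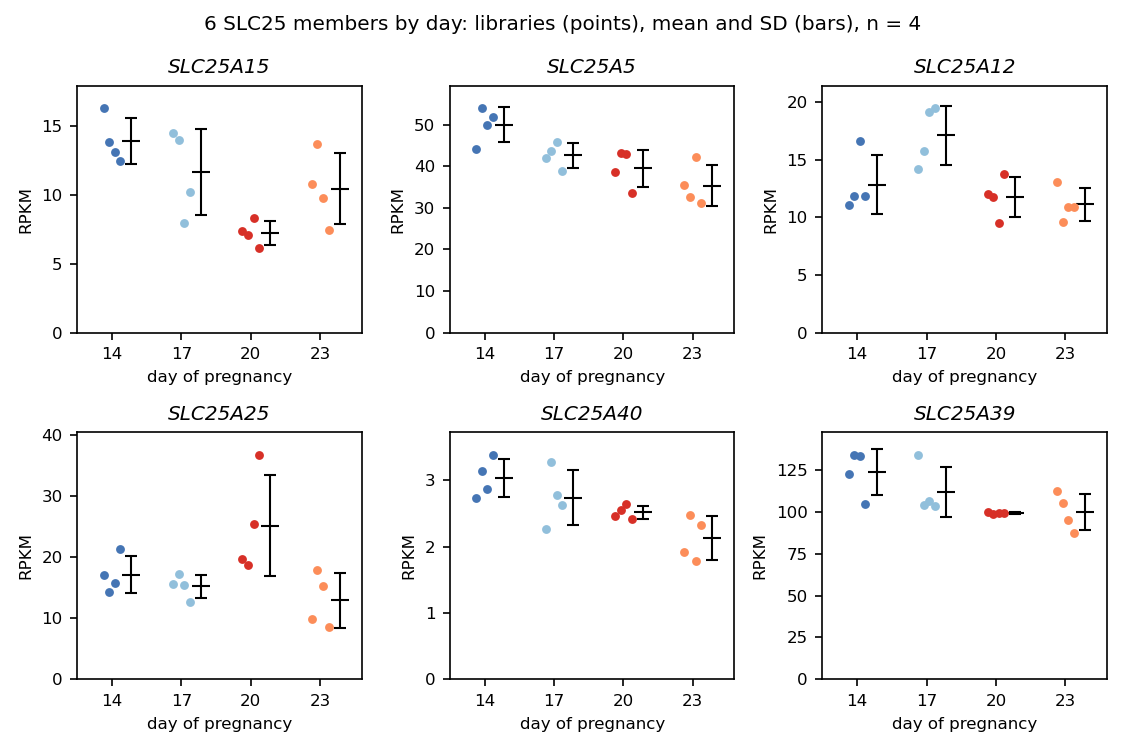
RPKM by day of pregnancy for 6 members: each point is a library, and the bar beside it gives mean and SD (n = 4). SLC25A15 is lowest on day 20 at 7.23, SLC25A5 and SLC25A40 have lower means on each later day, SLC25A12 is highest on day 17 at 17.1 and SLC25A25 on day 20 at 25.2.

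The genes that make and use ornithine gave a mixed picture. Of 14 genes of ornithine, arginine and proline metabolism, 10 were high enough to test and 0 passed in limma on any day. The enzymes of the urea cycle that lie in mitochondria were near 0: OTC had a mean RPKM of at most 0.007 on any day and CPS1 of at most 0.181. ALDH18A1, which makes the precursor from which ornithine and proline are derived, had 40.4, 50.8, 53.2 and 41.6 RPKM on day 20, against 62.7, 61.7, 68.6 and 64.9 on day 14. No library overlapped, and the log2 fold change was -0.47 ± 0.11 (unadjusted p = 0.000525, adjusted p = 0.16 in limma). Day 23, at 62.3 ± 5.32, did not overlap with day 20 either, at 46.5 ± 6.46 (log2 fold change 0.42 ± 0.11, limma adjusted p = 0.498). ODC1, which turns ornithine into putrescine, had 66.1 ± 18.7 RPKM for day 14, 87.7 ± 21.4 for day 20 and 53.2 ± 16.8 for day 23. OAT, which turns ornithine into a proline precursor, was named after its values were seen, at 61.6 ± 7.71 on day 23 against 50.2 ± 9.45 on day 14 (limma log2 fold change 0.30 ± 0.14, adjusted p = 0.38). The median log2 fold change of the 10 genes on day 20 was 0.08, against -0.02 over all genes tested.

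The other amino acid carriers were less uneven, with SLC25A12 as the exception. SLC25A12 and SLC25A13 carry glutamate into and aspartate out of mitochondria under control of calcium, a step of the malate-aspartate shuttle that brings reducing power inside. SLC25A12 had 11.1, 11.8, 16.6 and 11.8 RPKM on day 14, 14.2, 15.8, 19.1 and 19.4 on day 17, 12.0, 11.7, 9.49 and 13.7 on day 20 and 13.1, 9.59, 10.9 and 10.9 on day 23. All 4 libraries of day 17 were above those of days 20 and 23, and 1 library of day 14, replicate 3, reached into the range of day 17. The log2 fold change was 0.40 ± 0.14 on day 17 against day 14 (unadjusted p = 0.0125, adjusted p = 0.64), -0.51 ± 0.14 on day 20 against day 17 (unadjusted p = 0.00244, adjusted p = 0.399) and -0.58 ± 0.14 on day 23 against day 17 (unadjusted p = 0.000894, adjusted p = 0.14, all in limma). SLC25A13 had its lowest mean on day 17, at 8.54 ± 1.60 against 10.04 ± 0.573 on day 14. The ratio of SLC25A12 to SLC25A13 in a library was 1.12 to 1.58 for day 14, 1.48 to 2.85 for day 17, 0.906 to 1.68 for day 20 and 0.956 to 1.48 for day 23.

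SLC25A22, a glutamate carrier, was at 11.4 ± 2.32 on day 20 against 14.2 ± 2.82 on day 14. SLC25A44, a carrier of branched-chain amino acids, had 12.7, 11.7, 12.7 and 11.6 RPKM on day 23, against 13.01, 13.7, 12.8 and 14.5 on day 14. The groups did not overlap by a narrow margin, and its unadjusted p was 0.0728 in limma. SLC25A38, which brings glycine in for the synthesis of haem, had day means of 18.3 to 19.6, and SLC25A29, a carrier of basic amino acids, of 15.9 to 17.7.

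The ADP/ATP carriers export the ATP made in mitochondria. They are close copies of each other, and the counting of reads that fit several genes is not described, so the split between them is uncertain. SLC25A6 held most of their RPKM, 59.7% ± 3.72 for day 14, 59.2% ± 2.57 for day 17, 56.4% ± 1.36 for day 20 and 60.6% ± 3.23 for day 23, followed by SLC25A4 and SLC25A5. SLC25A5 is the form tied to growth and division in other tissues. It had 44.2, 53.96, 50.0 and 51.9 RPKM on day 14, 42.03, 43.7, 45.9 and 38.9 on day 17, 38.6, 43.1, 42.9 and 33.5 on day 20 and 35.5, 32.6, 42.3 and 31.2 on day 23. The libraries of days 20 and 23 all lay below those of day 14, and day 17 overlapped with day 14 in 1 library of each. The log2 fold change was -0.49 ± 0.10 on day 23 against day 14 (unadjusted p = 0.000242, adjusted p = 0.092, rank 35 of 13361 genes), -0.34 ± 0.10 on day 20 (adjusted p = 0.32) and -0.22 ± 0.10 on day 17 (adjusted p = 0.65, all in limma).

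SLC25A6 had 185, 146, 196 and 155 RPKM on day 14, 186, 141, 176 and 138 on day 17, 136, 126, 138 and 134 on day 20 and 179.6, 127, 151 and 140.1 on day 23. The day 20 libraries lay close together and below all of day 14 (log2 fold change -0.34 ± 0.13, unadjusted p = 0.0161, adjusted p = 0.45 in limma). Days 17 and 23 overlapped with both of these. SLC25A4, the form of heart and skeletal muscle, was even across days with means of 61.0 to 66.7. The sum of the ADP/ATP carriers was 264 to 315 RPKM for day 14, 241 to 297 for day 17, 229 to 243 for day 20 and 222 to 276 for day 23. The day 20 sums did not reach the range of day 14.

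**Figure D4:**
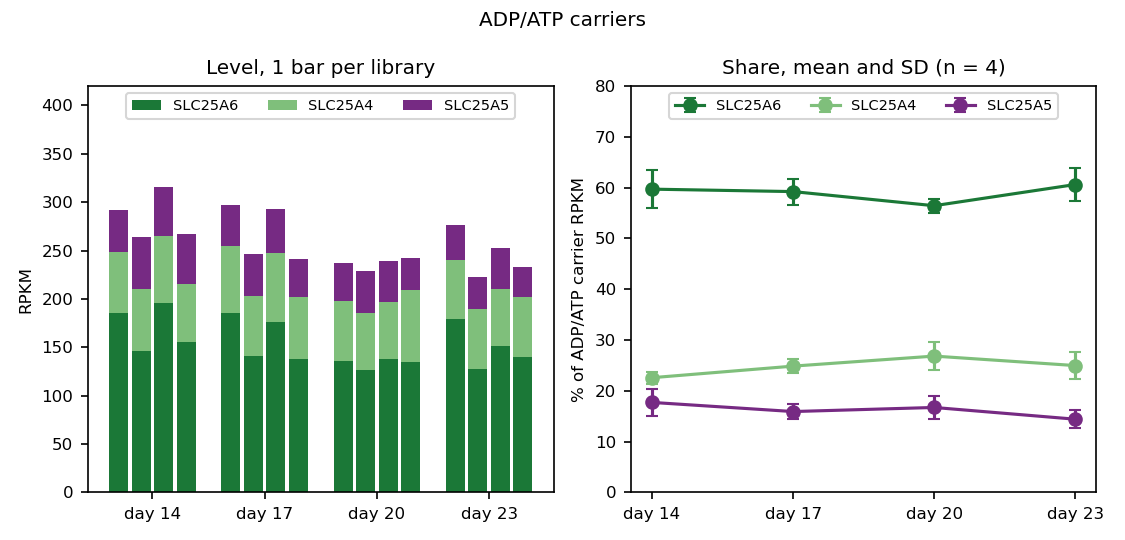
Left, stacked RPKM of the ADP/ATP carriers SLC25A6, SLC25A4 and SLC25A5 with 1 bar per library. Right, the share of each in their summed RPKM as mean and SD (n = 4). SLC25A6 holds 56.4% to 60.6% on each day, and the bars of day 20 are the most even. SLC25A31, with at most 5 reads per library, is not drawn.

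Phosphate enters through SLC25A3 to be joined to ADP. SLC25A3 had 318, 356, 321 and 299 RPKM on day 14, 317, 295, 311 and 304 on day 17, 318, 265, 312 and 287 on day 20 and 281, 329.6, 311 and 289.7 on day 23. The 4 days overlapped, and the log2 fold change of -0.13 ± 0.08 on day 20 against day 14 did not pass at either level of p (unadjusted p = 0.126 in limma). It was -0.08 without day 20 replicate 2.

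SLC25A25, SLC25A23 and SLC25A24 exchange ATP-Mg for phosphate in answer to calcium and so set the adenine nucleotide pool of the matrix. SLC25A25 had 17.2, 14.3, 15.7 and 21.3 RPKM on day 14, 15.5, 17.2, 15.5 and 12.7 on day 17, 19.7, 18.8, 25.5 and 36.8 on day 20 and 9.80, 17.96, 15.2 and 8.62 on day 23. Day 20 lay above days 17 and 23 in all libraries, with replicate 4 far above the others of that day. The log2 fold change was -0.92 ± 0.22 on day 23 against day 20 (unadjusted p = 0.000952, adjusted p = 0.498), 0.65 ± 0.22 on day 20 against day 17 (unadjusted p = 0.0113, adjusted p = 0.46) and 0.495 ± 0.22 on day 20 against day 14 (unadjusted p = 0.0435, adjusted p = 0.595, all in limma). Without day 20 replicate 4 the last of these was 0.30.

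SLC25A23 had its lowest mean on day 20. Its values were 16.7, 13.8, 16.04 and 19.8 RPKM on day 14, 17.5, 14.0, 15.5 and 16.1 on day 17, 13.2, 14.5, 14.7 and 14.3 on day 20 and 18.04, 16.4, 15.8 and 17.2 on day 23. Day 23 lay above day 20 in all libraries (log2 fold change 0.23 ± 0.09, unadjusted p = 0.0254, adjusted p = 0.64 in limma). Against day 14 the log2 fold change of day 20 was -0.20 ± 0.09 (unadjusted p = 0.0490 in limma), and -0.12 without day 14 replicate 4. SLC25A24 had day means of 7.81 to 8.73.

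SLC25A1 passes citrate to the cytosol. It had 629.5, 638, 382 and 389.8 RPKM on day 14, 566, 416, 652 and 610.3 on day 17, 528, 500.2, 550.4 and 394 on day 20 and 623, 784, 529.6 and 611 on day 23. Day 14 held 2 high and 2 low libraries, and all days overlapped. Its largest log2 fold change against day 14 was 0.35 ± 0.20 on day 23 (unadjusted p = 0.095, adjusted p = 0.49 in limma), which was 0.23 without day 14 replicate 3. On day 17 it was 0.16 and ranged from 0.04 to 0.30 with 1 library left out. ACLY, which splits citrate in the cytosol, had 477, 483, 626 and 168 RPKM on day 20, against 637, 965, 279 and 406 on day 14. Its 2 lowest libraries of day 14 were replicates 3 and 4, those in which SLC25A1 was also low.

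The remaining carboxylate carriers were SLC25A11, which exchanges oxoglutarate for malate, at 66.7 ± 2.65 on day 20 against 73.2 ± 6.17 on day 14, SLC25A35 with day means of 9.23 to 10.6, SLC25A34 with 1.87 to 2.75 and SLC25A21 with 1.37 to 1.99. None of them reached an unadjusted p under 0.05 in limma in any comparison. Among 8 enzymes of the malate-aspartate shuttle and of citrate metabolism the fold change on day 20 against day 14 was negative in 8 of 8, with 5 lower at an unadjusted p under 0.05, against 3.83% of all genes, and 0 past the threshold in limma. Their median was -0.26 on the log2 scale, against -0.02 over all genes tested. MDH2, mitochondrial malate dehydrogenase, had 349.7, 344, 329 and 318 RPKM on day 20, against 409, 378, 403 and 384 on day 14, with no overlap (log2 fold change -0.23 ± 0.11, adjusted p = 0.6 in limma).

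SLC25A20 brings acylcarnitines into the matrix in exchange for carnitine, so that fatty acids can be burnt. It had 20.7, 17.6, 16.04 and 18.1 RPKM on day 14, 23.8, 17.5, 17.4 and 13.8 on day 17, 14.7, 14.5, 13.3 and 16.2 on day 20 and 15.9, 13.02, 14.5 and 17.4 on day 23. Day 20 overlapped with day 14 in 1 library of each (log2 fold change -0.28 ± 0.13, unadjusted p = 0.0494, adjusted p = 0.61 in limma). The other genes of the carnitine shuttle, CPT1A, CPT1B, CPT2 and CRAT, were lower on day 20 than on day 14 in 4 of 4, each at an unadjusted p under 0.05, against 3.83% of all genes, and 0 past the threshold in limma. CRAT, carnitine acetyltransferase, had 160.3, 157, 143 and 151 RPKM on day 20, against 220.4, 191, 179 and 208 on day 14. CPT2, the transferase that follows SLC25A20, had 32.6, 32.2, 32.1 and 32.3 on day 20, against 41.3, 37.6, 36.6 and 34.8 on day 14. Neither gene overlapped between these days, nor between day 23 and day 20, where both were higher on day 23 (CRAT 199 ± 23.9 against 153 ± 7.502, CPT2 37.3 ± 2.76 against 32.3 ± 0.216). SLC25A20 was at 15.2 ± 1.89 on day 23 and overlapped with day 20.

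**Figure D5:**
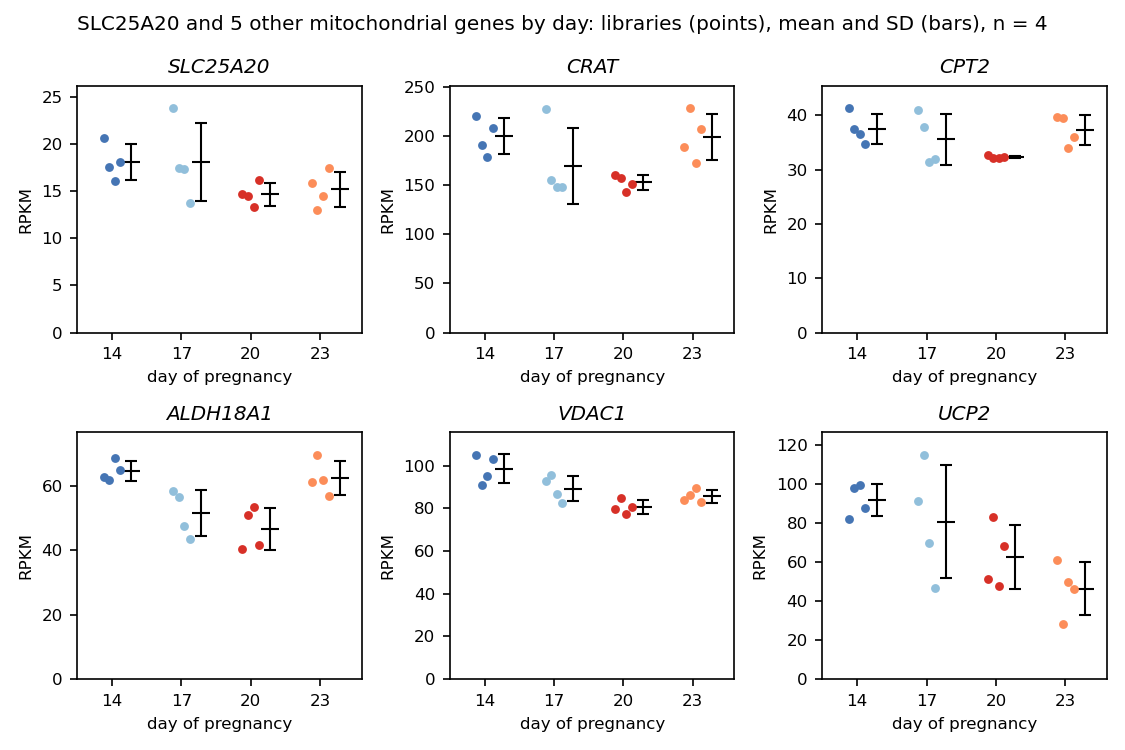
RPKM by day of pregnancy for the acylcarnitine carrier SLC25A20 and 5 other mitochondrial genes, with points for libraries and bars for mean and SD (n = 4). CRAT, CPT2 and ALDH18A1 are lower on day 20 than on days 14 and 23, whereas UCP2 has its lowest mean on day 23 at 46.2.

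Among carriers of cofactors and nucleotides, SLC25A42, a carrier of coenzyme A, had 4.37, 2.54, 3.96 and 3.25 RPKM on day 14, 5.33, 4.35, 2.90 and 3.19 on day 17, 3.21, 2.90, 3.71 and 3.28 on day 20 and 5.40, 3.76, 4.63 and 5.17 on day 23. Day 23 lay above day 20 in all libraries (log2 fold change 0.42 ± 0.16, unadjusted p = 0.0200, adjusted p = 0.63 in limma). SLC25A17, which sits in peroxisomes and not in mitochondria, had 22.5, 25.4, 27.8 and 24.2 RPKM on day 14, 25.8, 26.3, 28.4 and 31.1 on day 17, 27.1, 24.7, 26.1 and 27.3 on day 20 and 26.8, 32.2, 26.2 and 29.4 on day 23. Its log2 fold change on day 23 against day 14 was 0.19 ± 0.08 (unadjusted p = 0.0362 in limma), and the days overlapped. SLC25A26, which imports S-adenosylmethionine, had 6.53, 5.97, 7.60 and 7.16 RPKM on day 14, 5.57, 6.09, 6.71 and 5.18 on day 17, 5.66, 6.69, 5.81 and 5.87 on day 20 and 6.26, 4.90, 5.36 and 6.20 on day 23. Its log2 fold change on day 23 against day 14 was -0.23 ± 0.10 (unadjusted p = 0.0351 in limma), again with overlap.

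SLC25A51 had 8.62, 8.35, 8.44 and 9.50 RPKM on day 20, against 7.41, 8.27, 8.14 and 7.996 on day 14, which did not overlap but differed by less than an RPKM of 1 in the means (8.73 ± 0.528 and 7.95 ± 0.380). The pyrimidine nucleotide carriers SLC25A36 and SLC25A33 had day means of 28.4 to 31.7 and of 5.54 to 6.19. SLC25A16, another carrier linked to coenzyme A, had 9.93 to 11.4 and SLC25A32, which carries folate or FAD, 3.95 to 4.35. None of these 4 reached an unadjusted p under 0.05 in limma in any comparison.

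SLC25A39 and its close relative SLC25A40 bring glutathione, the main thiol antioxidant, into mitochondria. SLC25A39 had 123, 134, 134 and 105 RPKM on day 14, 134, 104, 106 and 104 on day 17, 100.2, 98.8, 99.5 and 99.5 on day 20 and 112, 105, 95.4 and 87.4 on day 23. The 4 libraries of day 20 were nearly equal and below all those of days 14 and 17. The log2 fold change against day 14 was -0.31 ± 0.10 on day 20 (unadjusted p = 0.00875, adjusted p = 0.37) and -0.30 ± 0.10 on day 23 (unadjusted p = 0.00921, adjusted p = 0.21, both in limma). SLC25A40 had 2.74, 3.14, 2.87 and 3.38 on day 14, 2.264, 3.27, 2.77 and 2.64 on day 17, 2.46, 2.55, 2.64 and 2.42 on day 20 and 1.92, 2.48, 1.78 and 2.33 on day 23. Days 20 and 23 lay below day 14 in all libraries, and the log2 fold change on day 23 was -0.37 ± 0.10 (unadjusted p = 0.00261, adjusted p = 0.15 in limma). The summed RPKM of 8 endothelial markers was 326 to 365 on day 23, against 372 to 563 on day 14, and its part in these values was not tested.

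The iron importers of mitochondria are SLC25A37, known from red cell precursors, and SLC25A28, known from other tissues. SLC25A28 was the higher in each of the 16 libraries, by 1.99 to 4.75 times. It had 111, 80.04, 58.4 and 97.6 RPKM on day 23, against 80.2, 65.6, 82.2 and 55.8 on day 14, with means of 86.8 ± 22.8 and 70.95 ± 12.5 and overlap between the days. SLC25A37 had 26.1, 25.4, 26.3 and 32.2 on day 17, against 23.1, 24.5, 22.3 and 28.02 on day 14. HBB, a globin gene of red cells, had 14.9, 4.11, 0.920 and 21.8 RPKM on day 17 and at most 0.615 on day 14. AHSP, the other red cell marker high enough to test, was at 1.68 ± 0.376 RPKM on day 17 against 1.77 ± 0.325 on day 14 (log2 fold change -0.05 ± 0.19, unadjusted p = 0.799 in limma). The library highest in HBB, day 17 replicate 4, was also the highest in SLC25A37. Replicate 1, second of that day in HBB at 14.9, had 26.1 for SLC25A37, and replicate 3, with HBB at 0.920, had 26.3. Of 6 red cell markers, 4 had a mean RPKM under 0.1, HBA, ALAS2 and SLC4A1 among them, and their part in SLC25A37 was not tested. The 7 genes of mitochondrial iron use were at a median log2 fold change of -0.06 on day 20 and 0.02 on day 23 against day 14. Over all genes tested the medians were -0.02 and -0.03, and 0 of the 7 were past the threshold in limma. Among them, ISCU was at 343 ± 22.9 on day 20 against 358 ± 29.6 on day 14 and NFS1 at 36.3 ± 2.90 against 40.3 ± 5.07.

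SLC25A30, SLC25A14 and SLC25A27 resemble the uncoupling proteins in sequence. SLC25A30 had 22.3, 20.2, 17.6 and 24.1 RPKM on day 14, 17.2, 23.7, 19.9 and 22.8 on day 17, 24.03, 25.4, 30.7 and 25.1 on day 20 and 22.5, 26.9, 25.7 and 24.4 on day 23. Day 20 lay above day 17 in all libraries and overlapped with day 14 in 1 library of each (log2 fold change 0.32 ± 0.11 against day 17, unadjusted p = 0.0122, adjusted p = 0.46, and 0.31 ± 0.11 against day 14, unadjusted p = 0.0155, adjusted p = 0.45, both in limma). SLC25A14 had day means of 3.03 to 3.32 and SLC25A27 of 2.62 to 3.10. UCP2, an uncoupling protein of the same family under another symbol, had 60.7, 27.97, 49.9 and 46.2 RPKM on day 23, against 82.2, 97.8, 99.7 and 87.7 on day 14. The groups did not overlap, and the log2 fold change was -1.02 ± 0.26 (unadjusted p = 0.00135, adjusted p = 0.12 in limma). UCP1 and UCP3 had day means of at most 0.0195. MTCH1, a family member of the outer membrane, was at 239 ± 25.1 on day 23 against 257 ± 14.1 on day 14.

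Of the little studied members, SLC25A46, which sits in the outer membrane and shapes mitochondria, had day means of 16.02 to 17.5 and SLC25A43 of 7.12 to 8.999. SLC25A45 had 1.02, 1.91, 2.17 and 1.397 RPKM on day 14, 1.43, 2.41, 1.71 and 1.89 on day 17, 1.23, 1.503, 1.23 and 0.798 on day 20 and 1.67, 0.781, 1.08 and 0.927 on day 23. The log2 fold change was -0.44 ± 0.17 on day 23 against day 17 (unadjusted p = 0.0197, adjusted p = 0.32 in limma), with overlap and with 38 to 138 reads per library.

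Genes that serve the carriers in general gave a background for these values. Carrier proteins reach the inner membrane through a dedicated import route, of which 11 genes were found and tested, and 0 passed in limma. Their median log2 fold change was -0.10 on day 20 and -0.13 on day 23 against day 14, where it was -0.02 and -0.03 over all genes tested. On day 20, 8 of 11 were negative and 0 lower at an unadjusted p under 0.05 in limma. On day 23, 9 of 11 were negative and 2 lower at that p, against 8.26% of all genes. TIMM8B was at 43.3 ± 4.22 on day 23 against 40.6 ± 5.69 on day 14 and TIMM10 at 39.5 ± 2.82 against 43.96 ± 2.66. VDAC1, the pore that lets the same solutes through the outer membrane, had 79.7, 84.9, 77.2 and 80.6 RPKM on day 20, against 105, 91.1, 95.0 and 103 on day 14. All libraries of day 20 were lower (log2 fold change -0.29 ± 0.07, unadjusted p = 0.000604, adjusted p = 0.16 in limma). MPC2, a subunit of the pyruvate carrier, was at 96.1 ± 7.32 on day 20 against 107 ± 11.04 on day 14. Of 5 pore and pyruvate carrier genes tested, only VDAC1 was lower at an unadjusted p under 0.05 in limma (1 of 5, against 3.83% of all genes). The fold change on day 20 against day 14 was positive in 2 of 5, with a median of -0.08, against -0.02 over all genes tested.

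Counting each member by the day on which its mean was highest gave 16 of 39 for day 14, 9 for day 17, 7 for day 20 and 7 for day 23. The day of the lowest mean was day 14 in 6, day 17 in 10, day 20 in 13 and day 23 in 10. The same counts were not made over all genes tested, so they describe the members and mark no trait of the family. Later days shared their comparison libraries of day 14, so the counts against day 14 are not independent of each other.

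On day 17 against day 14, SLC25A12 was higher at an unadjusted p under 0.05 in limma (1 of 39, against 4.92% of all genes) and SLC25A5 lower (1 of 39, against 2.65%), and no member was without overlap (0 of 39 higher and 0 of 39 lower, against 2.06% and 1.21% of all genes). The fold change was positive in 14 of 39 members, against 53.5% of all genes. Leaving out day 17 replicate 2 turned the count of 2 into 5, and median-ratio scaling turned it into 4, with 1 higher and 3 lower, where quantile normalization gave 1 higher and 2 lower. It was 1 when replicate 4 of day 17, replicate 1 of day 20 or replicate 1 of day 23 was left out. On day 23 against day 14, the 5 lower members (8.26% of all genes) were SLC25A5, SLC25A40, SLC25A39, SLC25A26 and SLC25A15, and the 2 higher (4.31%) were SLC25A17 and SLC25A42. Under median-ratio scaling and under quantile normalization this balance turned to 4 higher and 3 lower. Without overlap, 3 of 39 were lower, SLC25A5, SLC25A44 and SLC25A40 (4.81% of all genes), and 0 of 39 higher (2.15%). The fold change was positive in 12 of 39, against 43.3% of all genes, as it was in 12 of 39 on day 20, against 45.2%.

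Day 20 against day 17 held 2 of 39 members higher at an unadjusted p under 0.05, SLC25A30 and SLC25A25 (2.84% of all genes), and 3 lower, SLC25A12, SLC25A15 and SLC25A45 (5.32%). Without overlap, SLC25A30 and SLC25A25 were higher (2 of 39, against 1.37%) and SLC25A39 and SLC25A12 lower (2 of 39, against 3.19%), and 17 of 39 fold changes were positive, against 42.9% of all genes. Day 23 against day 17 held SLC25A30 higher (1 of 39, against 2.85%) and SLC25A12, SLC25A45, SLC25A5 and SLC25A40 lower (4 of 39, against 8.84%). Without overlap it held 0 higher (1.26%) and SLC25A12 lower (1 of 39, against 5.24%), and 17 of 39 fold changes were positive, against 40%. The majority turned with the scaling, to 23 of 39 positive under median-ratio scaling and 22 of 39 under quantile normalization. The count of 5 in this comparison was 2 without day 23 replicate 2. It was 3 when replicate 2 or 3 of day 17 or replicate 3 or 4 of day 23 was left out, and also under either other scaling, with 1 higher and 2 lower, and with the filter on a mean RPKM of 5. Day 23 against day 20 held SLC25A42, SLC25A15 and SLC25A23 higher (3 of 39, against 2.45%) and SLC25A25 lower (1 of 39, against 4.54%), with SLC25A23 and SLC25A42 higher without overlap (2 of 39, against 1.56%) and SLC25A25 lower (1 of 39, against 2.89%). Positive fold changes there numbered 21 of 39, against 44.9% of all genes, and the count of 4 was 2 without day 23 replicate 1 or replicate 4.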

How the data were processed

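Total RNA was taken from 16 bovine corpora lutea, 4 for each day of pregnancy, with RNA quality above the submitters' limit, and libraries were made with a stranded mRNA kit, per the labels' protocols. Per the submitters' processing notes, the genome build was ARS-UCD1.2 and the tools included HISAT2 2.1.0 and featureCounts 1.5.3, besides bedtools 2.26.0, DESeq2 and FastQC. The authors deposited RPKM per gene and library, and their table also holds an adjusted p-value per gene, deposited by the authors with no named comparison. The strand setting and the treatment of reads that fit several genes are not given in the sources used here, so overlapping genes and near-identical copies are uncertain.

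RPKM steps gave whole reads for all 27233 genes (100%, within 0.001 of a whole number). Genes with a value above 0 in no library, or in a single one, are whole by construction, so they check nothing. A value above 0 in any library was seen in 21090 genes. The recovered reads show the depth, 28.7 to 44.6 M per library, and served an alternative fit. In the main fit limma 3.58.1 (R 4.3.3) was run with a mean-dependent prior on log2(RPKM + 1), with day as the term, all 16 libraries (12 residual degrees of freedom) and the 13361 genes that reached an RPKM of 1 in 4 or more libraries. Fold changes are on the log2(RPKM + 1) scale, which understates low genes. P-values were adjusted by Benjamini-Hochberg over all genes tested, at a threshold of 0.05, and the script was tested on simulated data. Each gland is taken as a separate animal. In the main fit a p-value sets a difference between days against the spread between animals within a day, pooled over all days. Nothing beyond the separate labels states how these animals relate.

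Values of all libraries are given for SLC25A15, the 3 highest members, the 3 with the smallest F test p and those with an unadjusted p under 0.05, and for each pathway list the 2 genes with the highest mean. Members and lists were chosen with earlier results of these data known. Alternatives were other pseudocounts (0.5 and 0.1), other filters, median-ratio and quantile scaling, voom on recovered reads, a term for replicate number, the 8 libraries of a comparison alone and each library left out. Of the 39 members and of the red cell markers, 1 gene each enters the counts but is not reported here by name or value.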

Additional observations from a re-analysis of the deposited data

Results flagged for a closer look

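In 8 of 156 groups of 4 libraries, 1 library stood apart from the other 3 by Dixon's test, where chance gives about 1 in 20 groups, and 6 of them are described. SLC25A39 had 134.3 RPKM in day 17 replicate 1, against 103.6 to 106.4 in the other libraries of that day. SLC25A37 had 32.18 in day 17 replicate 4, against 25.42 to 26.33. SLC25A12 had 16.58 in day 14 replicate 3, against 11.05 to 11.83, and its log2 fold change on day 17 against day 14 was 0.52 without that library and 0.40 with it. SLC25A24 had 7.329 in day 14 replicate 1, against 9.123 to 9.291. In day 20 replicate 4, SLC25A46 had 19.13, against 16.12 to 16.37, and SLC25A14 had 3.708, against 2.712 to 2.863.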

How the results depend on the processing

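The count of members past an adjusted p of 0.05 was 0 in each comparison and stayed 0 under each alternative but the following, all for day 20 against day 14. With only the 8 libraries of the days compared it was 1, SLC25A15, at a log2 fold change of -0.86 and an adjusted p of 0.032, where 20 genes of 13361 passed. With 1 library left out the count ranged from 0 to 1, and it was 1 without day 17 replicate 3, again SLC25A15, at an adjusted p of 0.041, where 32 genes passed. The cause was not tested. SLC25A15 was singled out with its low level on day 20 known, so these passes are no fresh test of it. With 1 library left out, the fold change of SLC25A15 ranged from -0.92 to -0.79. Under the other scalings, filters, pseudocounts and voom its adjusted p was 0.132 to 0.225. SLC25A1 on day 20 against day 14, at -0.02, turned to 0.10 without day 14 replicate 1, 0.11 without day 14 replicate 2 and 0.09 without day 20 replicate 4, within a range of -0.14 to 0.11. With the replicate block, 0 members passed in each comparison, SLC25A15 on day 20 against day 14 was at -0.86 with an adjusted p of 0.142, and day 20 against day 17 held 8 members at an unadjusted p under 0.05 in place of 5. In their deviations from the day means, same-numbered libraries correlated at a median of 0.029, against -0.006 for pairs of other numbers. Over 0.1 were 5 of 24 same-numbered pairs and 18 of 72 others. The best correlation was with the own number in 3 of 16 libraries. Whether the numbers mark a shared batch was not tested. Members with few reads, such as SLC25A21 with 33 to 94 and SLC25A45 with 38 to 138 per library, carry more counting error than the others.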
